A study of Rattus norvegicus with 17 samples.

Results

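The 41 genes described here encode enzymes that take amino acids apart in the liver and, among them, 6 genes of the urea cycle, which turns the freed nitrogen into urea. They were picked by name as a pathway, with earlier results of these data known. Each was read through the probe set that carries its symbol in the platform annotation, or through the brightest such probe set over all 17 arrays where there were several, as for 10 of the 41. All 41 were measured, of 14217 genes in all. The samples were livers of male Harlan Sprague-Dawley rats, dosed with IPP (isopropylated phenol phosphate), a mixture of aryl phosphate esters used as a flame retardant and plasticiser, in corn oil by oral gavage once a day for 4 days. The vehicle group, given corn oil alone, held 5 rats, and the groups at 76.5, 153, 305.5 and 611 mg/kg held 3 rats each. The protocol rounds 76.5 to 77 and 305.5 to 306. One Affymetrix array was run per rat on RNA from pieces of the left liver lobe, so every value below is a log2 signal of whole tissue, in which fewer cells of a type and less RNA per cell cannot be told apart.

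Hepatocytes remove the amino group of most amino acids by passing it to alpha-ketoglutarate, which makes glutamate. Glutamate and glutamine release ammonia in mitochondria, and the urea cycle joins that ammonia to another nitrogen from aspartate. The carbon skeletons go on to glucose, ketone bodies or the citric acid cycle. Methionine takes its own route, through S-adenosylmethionine and homocysteine to cysteine. Many of these enzymes are among the most abundant liver transcripts and respond to glucocorticoids, glucagon and the protein content of the diet.

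The probe sets of the 41 genes gave mean log2 signals from 7.81 for Sds to 14.03 for Cps1, which depend on the probes and are not compared between genes. The 6 measured hepatocyte markers of 7 averaged 14.56 to 14.77 across the 17 livers, and none of them passed the test in any comparison. The median spread between rats of a group was 0.16 for these genes and 0.15 for all genes, as a pooled SD of log2 values.

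Arrays from 3 rats stood apart, those of 76.5 mg/kg rats 2 and 3 and 611 mg/kg rat 2, with median correlations to the other arrays of 0.987, 0.986 and 0.984 against at least 0.991 elsewhere. On the array of 611 mg/kg rat 2 the 3' minus 5' difference of the GAPDH control, a sign of RNA degradation, was 2.89, and 0.93 to 1.56 on the other 16 arrays. The mean of that difference was 1.70 in the 611 mg/kg group and 1.37 in vehicle rats. Markers of other cells moved at 611 mg/kg, where 4 of 7 measured endothelial markers (Pecam1, Kdr, Stab2 and Lyve1) and both measured red cell markers (Hbb, log2 difference -1.63, and Alas2, -1.34) fell. The summed endothelial signal was 3997 to 4010 at 611 mg/kg and 5145 to 6167 in vehicle rats. Of other markers at 611 mg/kg, 1 of 8 stellate cell ones (Pdgfrb, -0.80) fell, the cholangiocyte markers Epcam (0.72) and Krt7 (-0.43) of 4 measured moved opposite ways, and 0 of 6 Kupffer cell and 0 of 2 neutrophil markers passed. All 7 endothelial, 6 Kupffer cell and 8 stellate cell markers measured were also below vehicle at 305.5 mg/kg (median differences -0.37, -0.43 and -0.29), where Pecam1 (-0.37) and Pdgfrb (-0.73) passed. The summed endothelial signal there was 3738 to 4848. On the slope over dose rank 4 endothelial, 3 stellate cell (Pdgfrb, Reln and Col3a1) and both red cell markers fell. Of all genes, 2.42% fell and 5.04% rose at 611 mg/kg, 1.47% fell at 305.5 mg/kg and 2.78% fell on the slope. The part of these markers and arrays in the results below was not tested.

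Of the 41 genes 7 passed the test against vehicle at a dose or more. At 611 mg/kg the alanine aminotransferase gene Gpt and the serine dehydratase-like gene Sdsl were higher, and the homocysteine enzyme gene Cbs, the glyoxylate aminotransferase gene Agxt and the glutamate dehydrogenase gene Glud1 were lower. The glycine methyltransferase gene Gnmt and the proline dehydrogenase gene Prodh were lower at 305.5 mg/kg, and Prodh also at 153 mg/kg. The largest of these differences was 1.65-fold, for Cbs. No urea cycle gene passed the test at any dose.

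Each dose was compared with the same 5 vehicle rats in a limma model over all 17 arrays, and a gene passed at a Benjamini-Hochberg adjusted p under 0.05 over all 14217 genes. At 76.5 mg/kg 0 of the 41 genes passed, as did 0.267% of all genes (0.141% higher and 0.127% lower). At an unadjusted p under 0.05 there were 0 higher and 7 lower (Gldc, Gls2, Hal, Kmo, Nags, Prodh and Uroc1), against 5.56% and 5.18% of all genes. A fit with array weights called 1 higher and 5 lower, with weights of 5.04, 0.306 and 0.267 for rats 1, 2 and 3 of that dose. The share of all genes called in that weighted fit was not computed. At 153 mg/kg 0 were higher (0.408% of all genes) and 1 lower (0.338%), with 0.746% of all genes called either way. At 305.5 mg/kg 0 were higher (0.753%) and 2 lower (1.47%), with 2.22% either way. At 611 mg/kg 2 were higher (5.04% of all genes) and 3 lower (2.42%), which made 12.2% of the 41 against 7.46% of all genes. The median log2 difference of the 41 genes lay between -0.04 and 0.05 at the 4 doses, and that of all genes was at most 0.01. Between 611 and 305.5 mg/kg 0 of the 41 passed (0.324% of all genes did, 0.288% higher and 0.0352% lower). At an unadjusted p under 0.05 there were 0 higher (9.3% of all genes) and 1 lower, Tat (6.75%).

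A slope over the rank of the dose, from 0 for vehicle to 4 for 611 mg/kg, called 10 of the 41 genes (24.4%), against 6.74% of all genes. Of these 2 rose, Gpt and Sdsl (3.96% of all genes rose), and 8 fell, Agxt, Ass1, Cbs, Glud1, Gnmt, Hgd, Kynu and Prodh (2.78% fell). All genes include many dim ones, with a median log2 level of 7.52 against 11.93 for the 41. Shares among genes of like level were not computed, here or for the single doses. A slope over the 12 treated rats alone called 0 higher and 0 lower.

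**Figure D1:**
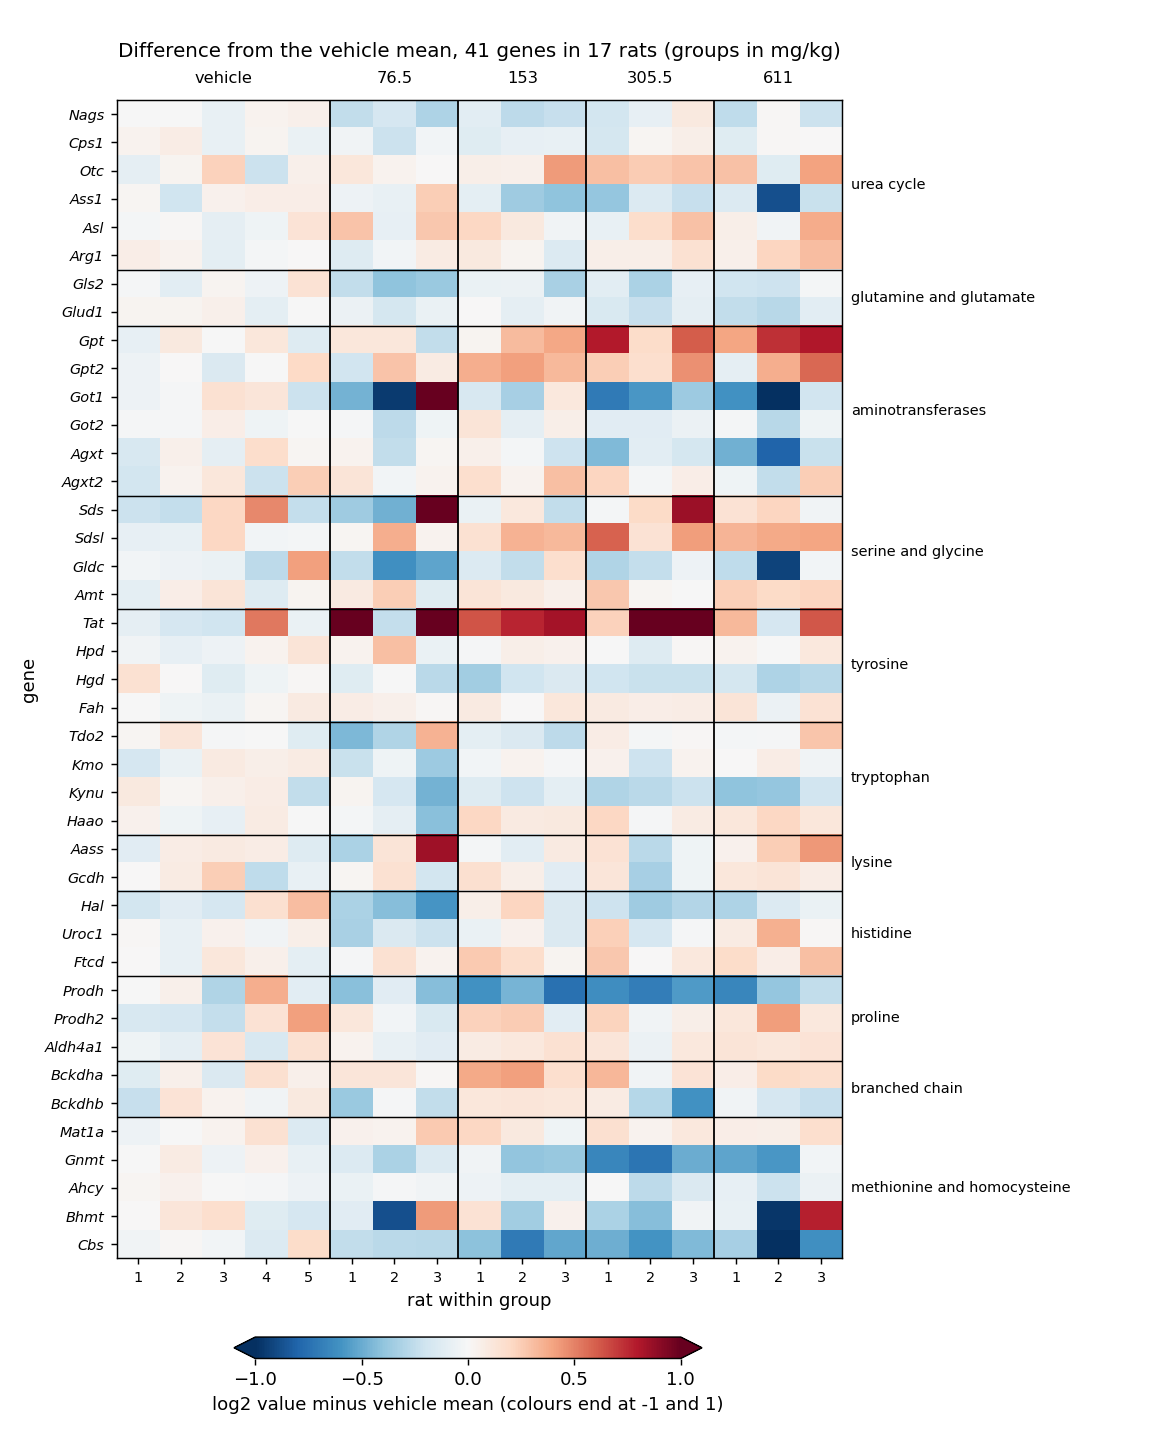
Log2 value minus the vehicle mean for each of 41 genes (down the page, grouped by pathway) in each of 17 rats (across, grouped by dose in mg/kg with vehicle at the left), red for higher and blue for lower, with colours ending at -1 and 1. Cbs and Prodh are blue and Gpt is red across the higher doses, while of the 17 rats 611 mg/kg rat 2 is the lowest for 9 genes, 611 mg/kg rat 3 the highest for 7, and 76.5 mg/kg rat 3 the highest for 6 and the lowest for 6.

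The first urea cycle steps lie in mitochondria. Nags makes the N-acetylglutamate that Cps1 needs, Cps1 makes carbamoyl phosphate from ammonia, and Otc joins it to ornithine. At 611 mg/kg against vehicle the log2 differences were -0.15 for Nags (95% confidence interval -0.33 to 0.03), -0.04 for Cps1 (-0.17 to 0.10) and 0.19 for Otc (-0.05 to 0.44). None passed at any dose. Otc passed on the slope over dose rank without the 3 arrays that stood apart (0.09 per step, adjusted p = 0.0188, limma) and with the GAPDH difference as a covariate (0.07, adjusted p = 0.0400), both chosen after seeing the data, and not with all 17 arrays and no covariate. On the linear scale the Cps1 interval ran from 0.886-fold to 1.07-fold.

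The cytosolic steps are those of Ass1, which condenses citrulline with aspartate, Asl, which splits argininosuccinate, and Arg1, which releases urea. Ass1 had log2 values of 13.36, 13.13, 13.38, 13.39 and 13.40 in the 5 vehicle rats, 13.28, 13.26 and 13.58 at 76.5 mg/kg, 13.24, 12.98 and 12.93 at 153 mg/kg, 12.95, 13.20 and 13.10 at 305.5 mg/kg, and 13.20, 12.45 and 13.11 at 611 mg/kg. The values at 611 mg/kg overlap those of vehicle through 611 mg/kg rat 1, and 611 mg/kg rat 2 is the lowest of the 17. Ass1 fell with dose rank, by 0.11 ± 0.03 per step (log2, SE, adjusted p = 0.0365, limma), and its difference at 611 mg/kg, -0.41 ± 0.14, missed the threshold (adjusted p = 0.0748). The slope lost its call without vehicle rat 1, 3, 4 or 5, 305.5 mg/kg rat 1 or 611 mg/kg rat 2 (adjusted p at most 0.121), and without the 3 arrays that stood apart it was -0.06 (adjusted p = 0.0818). Arg1 averaged 13.96 ± 0.13 (SD, n = 3) at 611 mg/kg and 13.77 ± 0.06 (SD, n = 5) in vehicle rats, a difference of 0.19 that did not pass (adjusted p = 0.113, limma). Asl averaged 11.58 ± 0.22 (SD, n = 3) at 611 mg/kg and 11.45 ± 0.08 (SD, n = 5) in vehicle rats and did not pass either.

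**Figure D2:**
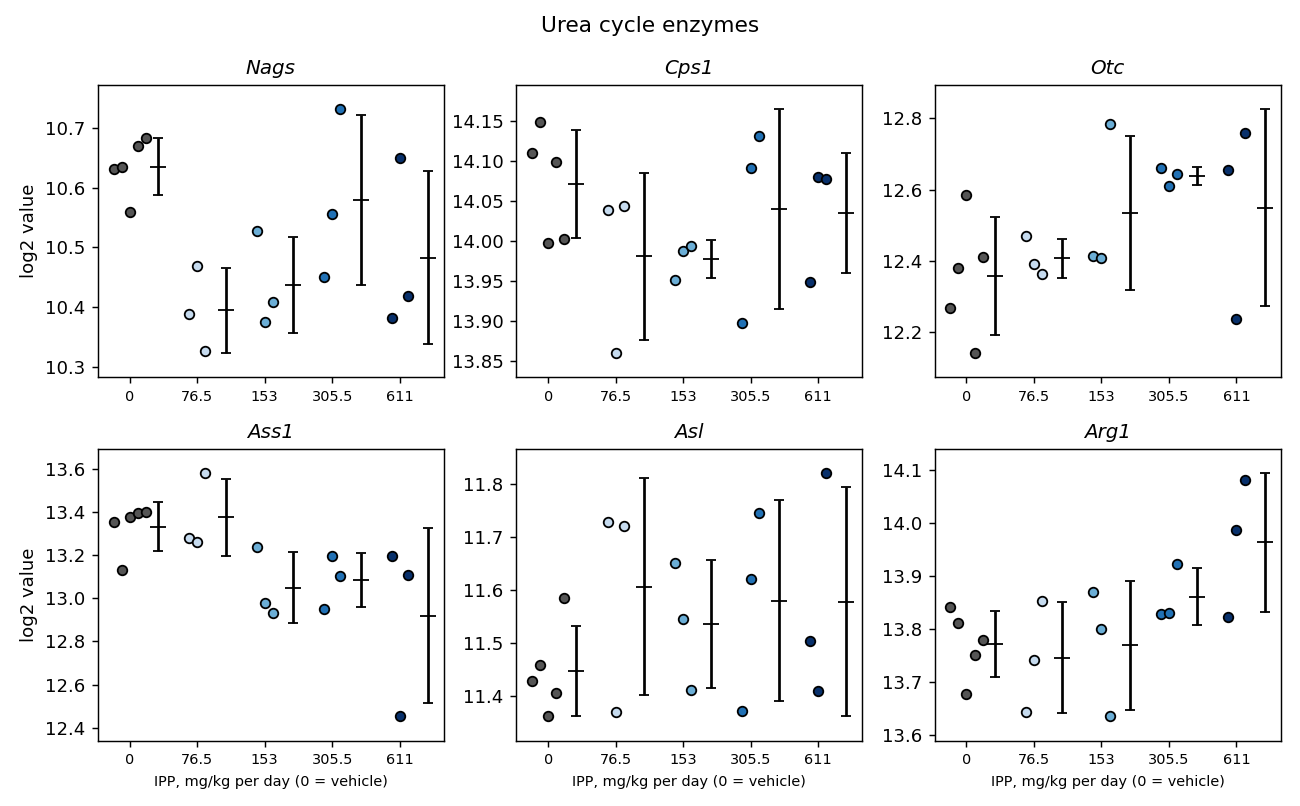
Log2 values of the 6 urea cycle genes (vertical axes, each to its own scale) in each rat (points) by daily dose of IPP in mg/kg (horizontal axes, 0 for vehicle), with the mean ± SD of each group beside its points (n = 5 for vehicle, 3 for each dose). The groups of Cps1 at 611 mg/kg and vehicle overlap, and the low point of Ass1 at 611 mg/kg is rat 2.

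Glutamate dehydrogenase, the product of Glud1, frees ammonia from glutamate, and the liver glutaminase of Gls2 frees it from glutamine. For Glud1 the log2 values were 13.43, 13.44, 13.45, 13.31 and 13.40 in the 5 vehicle rats, 13.35, 13.23 and 13.34 at 76.5 mg/kg, 13.41, 13.32 and 13.37 at 153 mg/kg, 13.25, 13.17 and 13.32 at 305.5 mg/kg, and 13.16, 13.13 and 13.30 at 611 mg/kg. All 3 rats at 611 mg/kg lay below all 5 vehicle rats. The difference was small, -0.21 ± 0.06 (SE, adjusted p = 0.0445, limma), or 1.15-fold lower. The second probe set of Glud1 gave -0.24. With every probe set tested it passed (adjusted p = 0.0206, limma), and the brighter probe set did not (adjusted p = 0.0572). The call over all genes, read by the brighter probe set, was lost without vehicle rat 1, 2, 3 or 5, any 153 mg/kg rat, 305.5 mg/kg rat 1 or 3, or 611 mg/kg rat 1 or 2 (adjusted p at most 0.196). Without the 3 arrays that stood apart that difference was -0.17 (adjusted p = 0.116). Gls2 differed by -0.14 at 611 mg/kg and by -0.34 at 76.5 mg/kg, and passed at neither.

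Of the 6 aminotransferase genes 1 was higher and 1 lower at 611 mg/kg. Gpt encodes the cytosolic enzyme that moves the amino group of alanine and serves in blood as a marker of liver injury. Rat by rat, Gpt had log2 values of 10.22, 10.40, 10.30, 10.41 and 10.17 in the 5 vehicle rats, 10.41, 10.42 and 10.05 at 76.5 mg/kg, 10.33, 10.62 and 10.69 at 153 mg/kg, 11.09, 10.48 and 10.91 at 305.5 mg/kg, and 10.70, 11.03 and 11.10 at 611 mg/kg. Every rat at 305.5 and 611 mg/kg lay above every vehicle rat, while the rats at 76.5 mg/kg overlapped with vehicle. Gpt rose by 0.64 ± 0.14 at 611 mg/kg (SE, adjusted p = 0.00987, limma), which is 1.56-fold with a 95% interval of 1.27 to 1.91. At 305.5 mg/kg the difference was 0.53 ± 0.14 and missed the threshold (adjusted p = 0.0563). The 611 mg/kg call was lost without 611 mg/kg rat 2 or without 611 mg/kg rat 3 (adjusted p at most 0.0559), whereas the slope, 0.17 ± 0.03 per dose step (adjusted p = 0.00210), held when any rat was left out. Gpt2, the mitochondrial counterpart, differed by 0.28 at 611 mg/kg and did not pass (adjusted p = 0.200), and its other probe set gave 0.07. Whether Gpt and Gpt2 differ in response was not tested.

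Agxt encodes the enzyme that turns glyoxylate into glycine and so keeps it from becoming oxalate. Its log2 values were 11.43, 11.64, 11.50, 11.77 and 11.61 in the 5 vehicle rats, 11.62, 11.34 and 11.61 at 76.5 mg/kg, 11.64, 11.57 and 11.38 at 153 mg/kg, 11.15, 11.48 and 11.42 at 305.5 mg/kg, and 11.11, 10.79 and 11.36 at 611 mg/kg. The 3 rats at 611 mg/kg all lay below the 5 vehicle rats, with rat 2 lowest. Agxt fell by 0.50 ± 0.12 (SE, adjusted p = 0.0196, limma), or 1.42-fold. Without the 3 arrays that stood apart the difference was -0.35 and missed the threshold (adjusted p = 0.0811), as it did without 611 mg/kg rat 2 alone (adjusted p = 0.141). Agxt2, a mitochondrial enzyme of glyoxylate and beta-amino acids, differed by -0.01.

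The aspartate aminotransferases Got1, in the cytosol, and Got2, in mitochondria, did not pass at any dose. Without the 3 arrays that stood apart, a fit chosen after seeing the data, the Got1 slope passed (-0.12 per step, adjusted p = 0.0457, limma). It did not pass with the GAPDH covariate (-0.16, adjusted p = 0.171) or with all 17 arrays and no covariate. Got1 had the widest spread between rats of a group of all 41 genes, with a pooled SD of 0.58. Got1 averaged 10.12 ± 0.58 (SD, n = 3) at 611 mg/kg and 10.82 ± 0.15 (SD, n = 5) in vehicle rats, and ran from 9.87 to 12.23 within the 76.5 mg/kg group. Got2 spanned 12.92 to 13.32 over all 17 rats.

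Of the 5 genes of methionine and homocysteine metabolism Cbs and Gnmt were lower, and Mat1a, Ahcy and Bhmt did not pass the test at any dose. Cbs encodes cystathionine beta-synthase, which commits homocysteine to cysteine. The log2 values of Cbs were 11.81, 11.85, 11.81, 11.70 and 12.02 in the 5 vehicle rats, 11.60, 11.57 and 11.56 at 76.5 mg/kg, 11.43, 11.13 and 11.32 at 153 mg/kg, 11.35, 11.24 and 11.40 at 305.5 mg/kg, and 11.51, 10.62 and 11.22 at 611 mg/kg. Every treated rat, at any of the 4 doses, lay below every vehicle rat, and 611 mg/kg rat 2 was the lowest of the 17. Cbs fell by 0.72 ± 0.14 at 611 mg/kg (SE, adjusted p = 0.00558, limma), which is 1.65-fold. At 76.5, 153 and 305.5 mg/kg the log2 differences were -0.26, -0.54 and -0.51 (adjusted p = 0.529, 0.100 and 0.0658) and missed the threshold. Without the 3 arrays that stood apart the 611 mg/kg difference was -0.47 (adjusted p = 0.0149).

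Gnmt encodes glycine N-methyltransferase, an abundant liver enzyme that uses up surplus S-adenosylmethionine. Log2 values of Gnmt were 13.17, 13.25, 13.12, 13.21 and 13.09 in the 5 vehicle rats, 13.03, 12.85 and 13.03 at 76.5 mg/kg, 13.13, 12.77 and 12.79 at 153 mg/kg, 12.52, 12.44 and 12.67 at 305.5 mg/kg, and 12.64, 12.58 and 13.14 at 611 mg/kg. The rats at 305.5 mg/kg were all below every vehicle rat, while 611 mg/kg rat 3, at 13.14, lay within the vehicle range. Gnmt fell by 0.63 ± 0.11 at 305.5 mg/kg (SE, adjusted p = 0.00633, limma), or 1.54-fold. At 611 mg/kg it differed by -0.38 ± 0.11, just short of the threshold (adjusted p = 0.0501), and the 611 and 305.5 mg/kg groups did not differ past it (0.25 ± 0.13, adjusted p = 0.347). The call for Cbs at 611 mg/kg and that for Gnmt at 305.5 mg/kg were kept in all 30 alternative fits of each.

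The bases before the start of these 2 genes are shown because the calls just named, 1 at a single dose for each, held in all 30 alternative fits. The slope calls of both were lost over treated rats alone, and that of Gnmt in 4 of 32 fits in all. Of 10 motifs searched in such windows 3 matched in these bases, and capitals mark the matches to the GC box motif GGGCGG, the NF-Y motif CCAAT or the nuclear receptor core motif AGGTCA, read on both strands, none of which overlap here. The sequences are from RefSeq, build GRCr8, 250 bases each from 5' to 3' along the gene, at chr20:9733926-9734175 on the minus strand for Cbs and chr9:21752032-21752281 on the plus strand for Gnmt.
Cbs: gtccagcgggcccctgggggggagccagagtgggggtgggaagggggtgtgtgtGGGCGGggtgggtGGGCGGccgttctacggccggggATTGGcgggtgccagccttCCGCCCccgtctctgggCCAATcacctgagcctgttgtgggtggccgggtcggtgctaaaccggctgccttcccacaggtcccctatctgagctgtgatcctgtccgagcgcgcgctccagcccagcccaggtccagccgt
Gnmt: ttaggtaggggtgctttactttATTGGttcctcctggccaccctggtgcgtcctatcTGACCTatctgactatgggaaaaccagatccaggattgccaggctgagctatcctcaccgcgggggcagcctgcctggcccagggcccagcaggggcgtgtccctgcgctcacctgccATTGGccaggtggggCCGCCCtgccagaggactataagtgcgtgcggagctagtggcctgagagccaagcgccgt
Windows of 250 bases before to 50 after the start were found for 34 of the 41 genes. The NF-Y motif was in 50% of the 34 and in 37.8% of all 27457 such windows, the GC box in 41.2% and 34.9%, and the core motif in 12 of the 34 (35.3%) and in 15.7% of all. Cbs held matches to the first 2 of these and Gnmt to all 3. An ATF4 element (TGATGNAA) was in 2 of the 34, Got1 and Tat (5.88%, against 3.82% of all). Of the other motifs searched, the TATA box (TATAAA) was in 20.6% of the 34 and in 14.3% of all, and the C/EBP motif (TTNCNNAA) in 29.4% and 40.7%. The D-box (TTANGTAA), the cyclic AMP response element (TGACGTCA), the E-box (CACGTG) and the palindromic glucocorticoid response element were in 0 of the 34, and in 2.18%, 1.91%, 6.64% and 0.0255% of all. These matches are descriptions of letters, not binding sites.

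The 3 other genes of this route gave smaller values. Mat1a, which makes S-adenosylmethionine, differed by 0.10 at 611 mg/kg (95% interval -0.06 to 0.26), and Ahcy, which frees homocysteine, by -0.12 (-0.25 to 0.02). Bhmt, which remethylates homocysteine with betaine, averaged 12.77 ± 0.87 (SD, n = 3) at 611 mg/kg and 12.86 ± 0.15 (SD, n = 5) in vehicle rats, the 611 mg/kg group holding both the lowest (rat 2) and the highest (rat 3) of the 17 values. The Bhmt difference changed sign, to 0.35 without the 3 arrays that stood apart and 0.15 with the GAPDH covariate.

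Among the serine and glycine genes 1 of 4 passed. The log2 values of Sdsl, a gene related to serine dehydratase, were 7.89, 7.91, 8.19, 7.95 and 7.96 in the 5 vehicle rats, 7.996, 8.35 and 8.02 at 76.5 mg/kg, 8.13, 8.33 and 8.30 at 153 mg/kg, 8.57, 8.13 and 8.40 at 305.5 mg/kg, and 8.32, 8.36 and 8.37 at 611 mg/kg. Sdsl is read here by the brighter of 2 probe sets. The rats at 611 mg/kg lay above all vehicle rats and close together. Sdsl rose by 0.37 ± 0.11 (SE, adjusted p = 0.0493, limma), or 1.29-fold, but its other probe set gave 0.06 and did not pass, and the call was lost without vehicle rat 1, 2, 4 or 5, 76.5 mg/kg rat 1, 305.5 mg/kg rat 3, or any rat at 153 or 611 mg/kg (adjusted p at most 0.146). Sds, the serine dehydratase gene, differed by 0.11 at 611 mg/kg with a pooled SD of 0.44. Gldc and Amt, 2 parts of the glycine cleavage system, differed by -0.40 and 0.22, and neither passed. The other, dim probe sets of Gldc gave 0.30 and -0.23.

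Proline oxidation starts with Prodh. Its product is proline dehydrogenase, and the log2 values were 10.55, 10.60, 10.25, 10.91 and 10.44 in the 5 vehicle rats, 10.13, 10.43 and 10.12 at 76.5 mg/kg, 9.95, 10.09 and 9.81 at 153 mg/kg, 9.93, 9.86 and 9.98 at 305.5 mg/kg, and 9.90, 10.17 and 10.30 at 611 mg/kg. At 153 and 305.5 mg/kg all 6 rats lay below all 5 vehicle rats, whereas 611 mg/kg rat 3 overlapped with vehicle. Prodh fell by 0.60 ± 0.13 at 153 mg/kg (SE, adjusted p = 0.0396, limma) and by 0.63 ± 0.13 at 305.5 mg/kg (adjusted p = 0.0167), or 1.52- and 1.54-fold. At 611 mg/kg the difference was -0.43 ± 0.13 (adjusted p = 0.0570). The 153 mg/kg call was lost without vehicle rat 1, 2, 4 or 5 or any rat at 153 or 305.5 mg/kg (adjusted p at most 0.191), and that at 305.5 mg/kg without any of the 3 rats of its dose (adjusted p at most 0.0872). Its dim second probe set gave -0.09 and -0.10 at these doses. Prodh2, which oxidises hydroxyproline, and Aldh4a1, which makes glutamate in the next step, differed by 0.21 and 0.12 at 611 mg/kg and did not pass.

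The tyrosine and tryptophan genes gave 2 falls with dose rank and none at a single dose. Hgd encodes homogentisate dioxygenase of tyrosine breakdown. Its values were 11.83, 11.67, 11.55, 11.63 and 11.68 in the 5 vehicle rats, 11.55, 11.67 and 11.40 at 76.5 mg/kg, 11.32, 11.47 and 11.53 at 153 mg/kg, 11.47, 11.45 and 11.45 at 305.5 mg/kg, and 11.50, 11.36 and 11.39 at 611 mg/kg. All rats at 153, 305.5 and 611 mg/kg lay below all vehicle rats, with -0.25 ± 0.08 at 611 mg/kg (SE, adjusted p = 0.0644, limma) and a slope of -0.06 ± 0.02 per dose step (adjusted p = 0.0372). Leaving out vehicle rat 1, 2, 4 or 5, 305.5 mg/kg rat 1 or 3, or 611 mg/kg rat 2 or 3 ended the call for that slope (adjusted p at most 0.0950). Kynu encodes kynureninase of tryptophan breakdown. Kynu had log2 values of 12.37, 12.29, 12.33, 12.35 and 12.03 in the 5 vehicle rats, 12.30, 12.11 and 11.80 at 76.5 mg/kg, 12.15, 12.06 and 12.18 at 153 mg/kg, 11.97, 12.004 and 12.06 at 305.5 mg/kg, and 11.87, 11.89 and 12.09 at 611 mg/kg. Vehicle rat 5 was lower than the other 4 vehicle rats and within the range of the dosed ones. The Kynu slope was -0.08 ± 0.02 per dose step (adjusted p = 0.0482, limma), and the call was lost in 23 of 32 alternative fits, 13 of them leaving out a single rat (adjusted p at most 0.110).

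Tat, the tyrosine aminotransferase gene and a classic glucocorticoid target, had the largest difference of the 41 genes at any dose, and it did not pass. It averaged 10.79 ± 0.97 (SD, n = 3) at 305.5 mg/kg and 9.45 ± 0.30 (SD, n = 5) in vehicle rats, a difference of 1.35 ± 0.35 (SE, adjusted p = 0.0525, limma). Within the 305.5 mg/kg group rats 2 and 3 had 11.34 and 11.36 and rat 1 had 9.67. That value is inside the vehicle range only through vehicle rat 4, at 9.97, with the other 4 vehicle rats at 9.25 to 9.38. The Tat difference was 0.65 at 76.5 mg/kg and 0.74 at 153 mg/kg, and neither passed. All 3 rats at 153 mg/kg lay above all vehicle rats. At 611 mg/kg the Tat difference was 0.26 ± 0.35. Hpd and Fah, further steps of tyrosine breakdown, did not pass at any dose, and Fah had the narrowest spread of all 41 genes, with a pooled SD of 0.06. Tdo2, the first enzyme of tryptophan breakdown, with Kmo and Haao of the same route, stayed within -0.17 to 0.14 of vehicle at 153 to 611 mg/kg. At 76.5 mg/kg all 4 tryptophan genes, Kynu among them, were below vehicle, from -0.13 for Tdo2 to -0.21 for Kmo, and none passed.

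**Figure D3:**
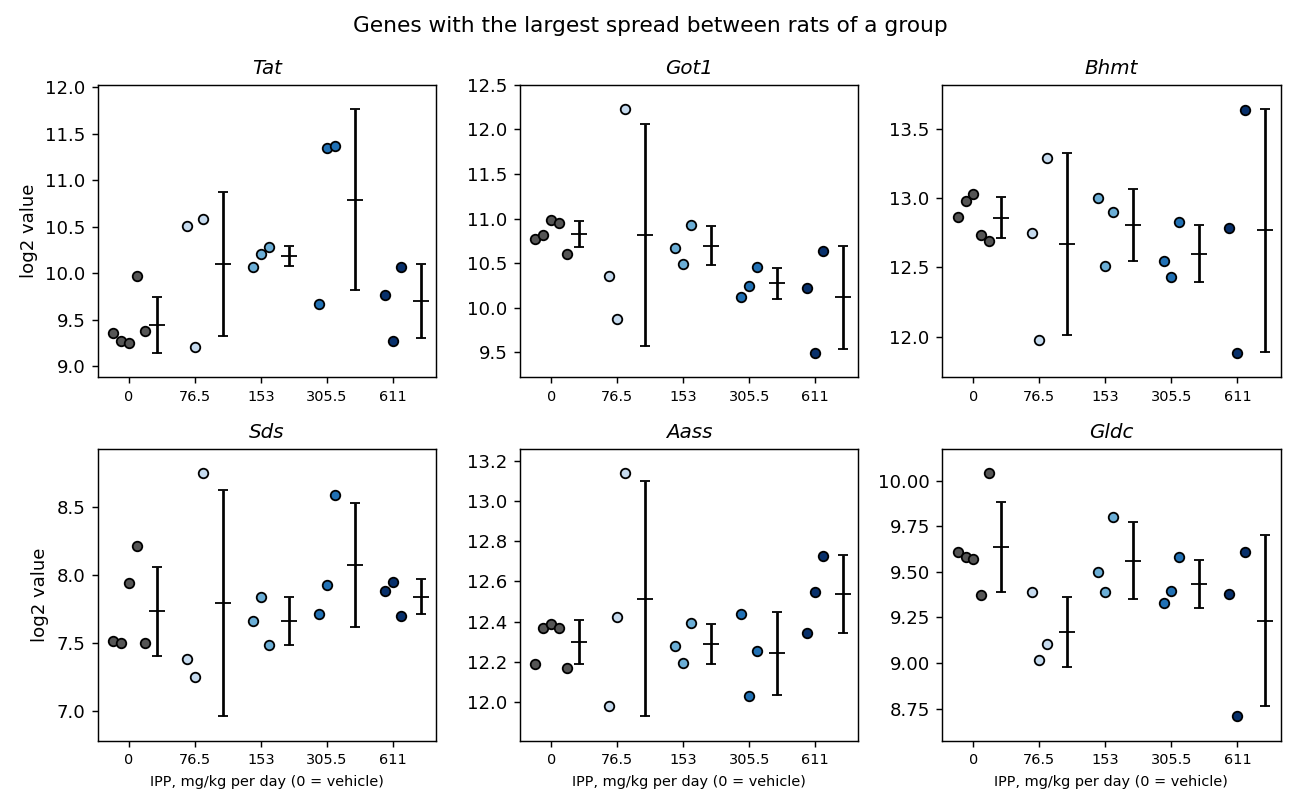
Log2 values (vertical axes, each to its own scale) of the 6 genes with the largest pooled SD within groups, in each rat (points) by daily dose of IPP in mg/kg (horizontal axes, 0 for vehicle), with the mean ± SD of each group beside its points (n = 5 for vehicle, 3 for each dose). For Got1 and Aass 76.5 mg/kg rat 3 stands above all other rats, and for Tat 2 of 3 rats at 305.5 mg/kg do.

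The lysine genes Aass and Gcdh, the histidine genes Hal, Uroc1 and Ftcd, and the branched chain dehydrogenase subunit genes Bckdha and Bckdhb did not pass in any comparison. Their differences at 611 mg/kg ran from -0.17 for Hal to 0.24 for Aass. Hal, the histidine ammonia-lyase gene, had its largest difference at the lowest dose, -0.44 at 76.5 mg/kg, where all 3 rats lay below all vehicle rats (adjusted p = 0.164, limma). Bckdha differed by 0.32 at 153 mg/kg, where its 3 rats lay above all vehicle rats, and by 0.14 at 611 mg/kg. Its dim second probe set gave -0.41 and -0.14 at these doses.

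**Figure D4:**
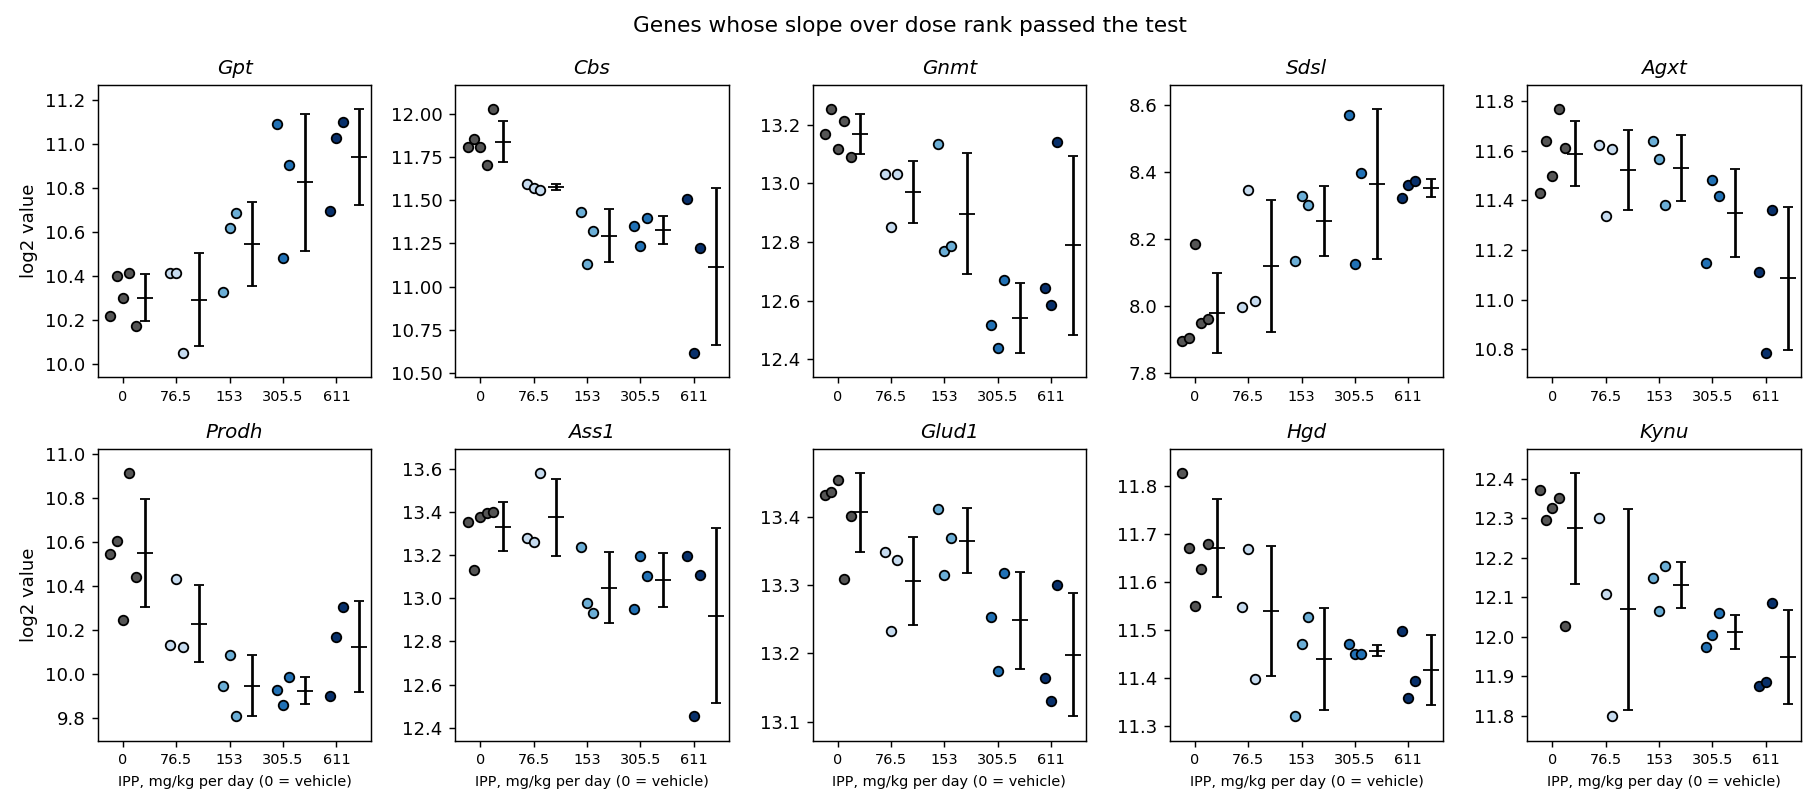
Log2 values (vertical axes, each to its own scale) of the 10 genes whose slope over dose rank passed the test, in order of p, in each rat (points) by daily dose of IPP in mg/kg (horizontal axes, 0 for vehicle), with the mean ± SD of each group beside its points (n = 5 for vehicle, 3 for each dose). Gpt and Sdsl go up and the other 8 go down, and every treated rat lies below the vehicle rats for Cbs.

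By overlap alone, 4 of the 41 genes had all 3 rats at 611 mg/kg above all vehicle rats (Amt, Gpt, Haao and Sdsl, against 11.5% of all genes) and 5 had them all below (Agxt, Ahcy, Cbs, Glud1 and Hgd, against 7.13%). At 76.5 mg/kg the counts were 0 above (3.14% of all genes) and 6 below (Cbs, Gls2, Gnmt, Hal, Nags and Uroc1, against 3.16%). At 153 mg/kg 4 lay above (Bckdha, Gpt2, Haao and Tat, against 8.3%) and 5 below (Cbs, Cps1, Hgd, Nags and Prodh, against 4.42%). At 305.5 mg/kg 2 lay above (Gpt and Otc, against 6.37%) and 7 below (Cbs, Gnmt, Got1, Got2, Hal, Hgd and Prodh, against 7.34%). The 611 mg/kg means of Cbs and Agxt were the lowest of the 5 groups, those of Gnmt and Prodh were lowest at 305.5 mg/kg, and none of these steps between 305.5 and 611 mg/kg passed the test.

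**Figure D5:**
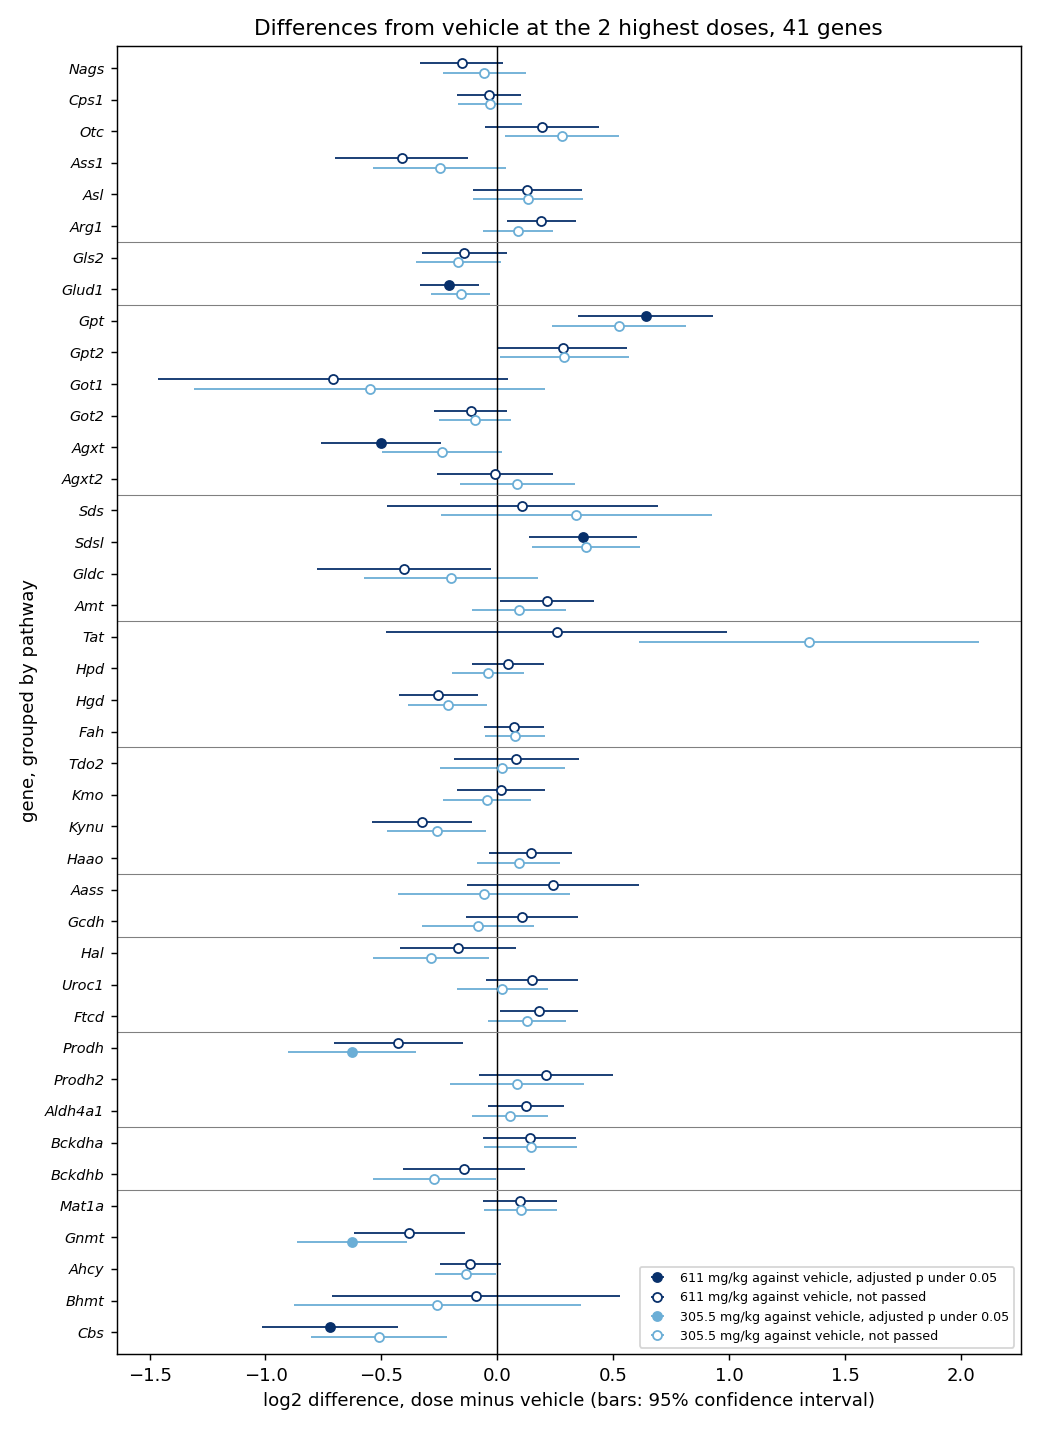
Log2 difference from vehicle (horizontal axis) with 95% confidence intervals for each of 41 genes (down the page, grouped by pathway), at 611 mg/kg (dark, upper of each pair) and 305.5 mg/kg (light, lower), where filled points passed the test at an adjusted p under 0.05. Filled points are Gpt, Sdsl, Agxt, Cbs and Glud1 at 611 mg/kg and Gnmt and Prodh at 305.5 mg/kg, and Tat at 305.5 mg/kg is the farthest from 0.

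Of a list of further genes of amino acid metabolism, 52 of 63 were measured, and 6 rose (5.04% of all genes) and 2 fell (2.42%) at 611 mg/kg (median 0.03). The 6 became 1 when 611 mg/kg rat 2 was left out, and 2 when rat 3 of that dose was. The 2 that fell were Gatm, which starts creatine synthesis from arginine and glycine, by 0.86 ± 0.16 (SE, adjusted p = 0.00357, limma), and Slc25a22, a mitochondrial glutamate carrier, by 0.79 ± 0.14 (adjusted p = 0.00382). The log2 values of Gatm were 7.19, 7.42 and 7.37 at 611 mg/kg and 8.26, 7.95, 8.53, 7.77 and 8.42 in vehicle rats, so the groups did not overlap. Both calls were kept in all 30 alternative fits of each. Those that rose were Shmt1 (0.36), the cytosolic serine hydroxymethyltransferase gene, Hoga1 (0.43), which releases glyoxylate from hydroxyproline, the valine enzyme genes Hibch (0.60) and Aldh6a1 (0.38), the methionine adenosyltransferase subunit gene Mat2b (0.36), and the hydroxylysine kinase gene Hykk (1.28). Of these, Hykk lost its call in 16 of 30 alternative fits, among them when any single vehicle or 611 mg/kg rat, 153 mg/kg rat 3 or 305.5 mg/kg rat 3 was left out (adjusted p at most 0.178, limma). Mat2b lost it in 9, among them when vehicle rat 1, 4 or 5 or any single 611 mg/kg rat was left out (adjusted p at most 0.0661). Hibch, Hoga1 and Aldh6a1 lost it without 611 mg/kg rat 2, and Hoga1 and Aldh6a1 also without 611 mg/kg rat 3 and with the mean over probe sets. At 305.5 mg/kg 0 rose (0.753% of all genes) and 2 fell (1.47%), Gatm (-0.73) and Cth (-0.46), the gene of the step after Cbs. Cth had 12.60, 12.97 and 13.00 at 305.5 mg/kg and 13.34, 13.38, 13.36, 13.27 and 13.25 in vehicle rats. Its difference at 611 mg/kg was -0.30 and missed the threshold (adjusted p = 0.129). The 305.5 mg/kg calls of Gatm and Cth were not recomputed in alternative fits.

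Of 17 amino acid transporter genes 1 rose at 611 mg/kg (5.04% of all genes did), the glutamate importer gene Slc1a2 (0.42 ± 0.11, SE, adjusted p = 0.0306, limma). At 305.5 mg/kg 1 rose (0.753% of all genes), the large neutral amino acid carrier gene Slc7a5 (0.68). The Slc7a5 call was not recomputed in alternative fits. The Slc1a2 call was lost in 9 of 29 alternative fits, among them when vehicle rat 2, 4 or 5 or any single 611 mg/kg rat was left out (adjusted p at most 0.0912). Slc1a2 is also the only 1 of 8 measured pericentral markers past the test at 611 mg/kg, and 0 of 5 periportal markers passed there (7.46% of all genes did). Of 13 measured regulators of the pathway, of 14 listed, 2 rose at 611 mg/kg (5.04% of all genes did). These were the glucocorticoid receptor gene Nr3c1 (0.52 ± 0.10, adjusted p = 0.00702) and Klf15 (0.80 ± 0.17, adjusted p = 0.00792), a transcription factor of amino acid breakdown in fasting. Klf15 had 9.83, 10.29 and 10.28 at 611 mg/kg and 9.34, 9.48, 9.14, 9.61 and 9.06 in vehicle rats. Klf15 lost its call without 611 mg/kg rat 2 (adjusted p = 0.0511, limma), and both lost it with the mean over probe sets (adjusted p = 0.0828 for Nr3c1 and 0.198 for Klf15).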

How the data were processed

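The labels describe 17 Affymetrix arrays of rat liver RNA, and the deposited table holds the authors' normalized log2 values for 31099 probe sets. RMA is named per the submitters' processing notes, with a version not given in the sources used here. The platform table gives 1 symbol to 20826 probe sets, several to 436 and none to 9780, beside 57 control probe sets. Values on the arrays ran from 2.61 to 15.36 and array medians from 6.29 to 6.40, and the number of arrays limits the precision.

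From these values, limma 3.58.1 in R 4.3.3 was fitted to all 14217 genes with 5 groups and eBayes with trend, and in a further fit a slope over dose rank, with no filter on low values. A gene's brightest probe set stood for it, and all p-values were adjusted by Benjamini-Hochberg over all genes. All 41 genes could be named, those past a test in any comparison with every rat's value. From other lists those past the test at 611 mg/kg were named, and Cth and Slc7a5, which passed at 305.5 mg/kg, were named after their values were seen. The members and lists were chosen with earlier results of these data known. The fit was also run on simulated data with independent normal noise, which held no arrays that stood apart. That run does not bear on how such arrays affect the calls. Nothing says that rats of a group shared litter or cage. Promoters came from RefSeq GRCr8, 1 window per gene, matched by symbol for 34 of the 41. Alternatives were another summary of probe sets, filter, scaling, weights, eBayes setting, block, pair of groups, threshold or dose scale, and leaving out each rat. Those without the 3 arrays, with the GAPDH covariate or over treated rats alone were chosen after seeing the data.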

Additional observations from a re-analysis of the deposited data

Results flagged for a closer look

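In each of the 41 genes the 5 vehicle rats were searched for a value far from the other 4 (Dixon's gap over range), and 4 such values were found. Chance alone gives such a value in about 5% of groups. The groups of 3 dosed rats were too small to search. Ass1 read 13.13 in vehicle rat 2 and 13.36 to 13.40 in the other 4. Kynu read 12.03 in vehicle rat 5 and 12.29 to 12.37 in the others. Sdsl read 8.19 in vehicle rat 3 and 7.89 to 7.96 in the others. Tat read 9.97 in vehicle rat 4 and 9.25 to 9.38 in the others. The 4 values came from 4 different rats.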

How the results depend on the processing

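Of 889 adjusted p values recomputed for called genes, 675 stayed past the threshold and 0 came with a change of sign, and of 424 counts 272 were equal and 327 within 1.5 times. Counts left out below stayed within 1.5 times those of the main fit. Shares of all genes called were not computed for any alternative fit, here, above or with a rat left out. These counts are therefore not set against all genes. With array weights the members called were 1 higher and 5 lower at 76.5 mg/kg, 2 lower at 153, 3 higher and 5 lower at 305.5, 4 higher at 611 mg/kg and 6 higher in the slope. The members lower at 611 mg/kg and in the slope, 3 and 8 in the main fit, stayed within 1.5 times with these weights. With the mean over probe sets or every probe set tested, 0 were lower at 153 mg/kg and 1 higher at 611, and the mean gave 1 higher in the slope. Median centring gave 0 lower at 153 mg/kg and 5 lower in the slope, repeated quantile normalization 1 higher at 305.5 and 1 higher at 611 mg/kg, and omission of the dimmest 40% of genes 2 higher at 305.5 and 7 lower at 611 mg/kg. Members lower at 611 mg/kg were also 2 with every probe set tested, median centring, eBayes without trend or a pair of groups alone, and 4 with repeated quantile normalization. Fits of a pair of groups alone gave 2 higher and 2 lower at 153 mg/kg and 2 higher and 4 lower at 305.5. At adjusted p under 0.01 the counts were 0 lower at 153 mg/kg, 1 lower at 305.5, 1 higher and 1 lower at 611 mg/kg and in the slope, and 0 further pathway genes higher. Without the 3 arrays that stood apart they were 2 lower at 153 mg/kg, 3 higher and 4 lower at 305.5, and 1 higher and 1 lower at 611 mg/kg. With the GAPDH covariate they were 2 lower at 153 mg/kg, 2 higher and 3 lower at 305.5, and 1 higher and 2 lower at 611 mg/kg. The slope gave 1 higher and 3 lower with dose in mg/kg and also without the 611 mg/kg group, and 0 of either over treated rats alone.

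Leaving out 1 rat gave 0 to 0 at 76.5 mg/kg either way, 0 to 0 higher and 0 to 2 lower at 153, 0 to 2 higher and 1 to 3 lower at 305.5, 0 to 3 higher (0 without 611 mg/kg rat 2 or 3) and 1 to 8 lower (1 without 611 mg/kg rat 2, 8 without 76.5 mg/kg rat 3) at 611, and 2 to 3 higher and 3 to 8 lower (3 without vehicle rat 1, 305.5 mg/kg rat 1 or 611 mg/kg rat 2) in the slope. It gave 0 to 0 higher and 0 to 1 lower between 611 and 305.5 mg/kg, and 1 to 6 further pathway genes higher and 2 to 3 lower at 611. The fit with the replicate number as a block also left out vehicle rats 4 and 5. Effects of the block and of fewer vehicle rats therefore cannot be told apart in it. Members called with that block were 0 lower at 153 mg/kg, 1 lower at 305.5, 0 higher and 1 lower at 611, and 1 higher and 1 lower in the slope, with 0 further pathway genes higher. Cbs at 611 mg/kg (adjusted p = 0.0194) and Gnmt at 305.5 mg/kg (adjusted p = 0.0253) kept their calls with that block, and Gpt at 611 mg/kg lost it (adjusted p = 0.0653). Deviations of rats of the same number correlated from -0.26 to 0.40 over 30 pairs (median 0.01). Those of other numbers correlated from -0.35 to 0.34 over 60 pairs (median -0.03). These correlations gave no sign that the numbers pair the rats but cannot exclude it, and the labels do not state it. The cause of these shifts was not tested. With 3 rats a dose and 5 on vehicle, leaving out a single rat can decide a call, and 6 of the 8 calls of members at single doses (all but Cbs at 611 and Gnmt at 305.5 mg/kg) were lost without some rat.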
